A study of Homo sapiens with 12 samples.

Results

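The 39 genes described here encode the machinery of macroautophagy, from the kinase complex that starts it to the receptors that bring cargo to the forming vesicle. They were taken as a list of names and not by their levels, and all 39 had a probe set annotated to 1 gene, out of 18404 genes measured in all. A gene with several such probe sets was read from the one whose mean over the 12 arrays was highest. By role the list held 5 genes of the initiation kinase complex, 6 of the class III PI3-kinase complex, 6 for lipid supply and the phagophore membrane, 11 conjugation enzymes and their partners, 4 genes of the ATG8 family and 7 cargo receptors and adaptors.

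In autophagy the ULK1 kinase complex starts the process and a lipid kinase complex built on PIK3C3 marks a membrane, which then grows with lipid carried by ATG2 proteins and vesicles that hold ATG9A. A pair of ubiquitin-like conjugation systems attaches ATG8 proteins, such as LC3 and GABARAP, to that membrane, and cargo receptors bind the ATG8 proteins and what is to be degraded. In acute promyelocytic leukemia, autophagy is known as one of the routes by which the PML-RARA fusion protein is broken down when all-trans retinoic acid (ATRA) drives the cells towards granulocytes.

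The cells were NB4, an established human line of acute promyelocytic leukemia, and their total RNA was hybridised to 12 arrays in 4 arms of 3. ATRA-treated knockdown cells were lines with an shRNA against HOTAIRM1, a long noncoding RNA of the HOXA cluster, after 96 hours of 0.5 uM ATRA: shRNA1 as replicates 1 and 2, and a different construct, shRNA2, on 1 array. Untreated knockdown cells were the same lines without ATRA. ATRA-treated control cells were scrambled shRNA lines, replicates 1 and 2, and wild type NB4 cells with no vector on 1 array, also after 96 hours of 0.5 uM ATRA, and untreated control cells were their counterparts without it. Every shRNA line, scrambled included, carried a lentiviral vector marked with GFP, was sorted for that marker and was grown from single cells, so a line may stand for 1 clone. Wild type cells lack the vector, and both controls are counted together here. The labels call the duplicates biological but name no separate clones, so the p-values rest on a spread between samples that may in part be technical. In the sentences on single genes, the 3 values of an arm are given as shRNA1 replicate 1, shRNA1 replicate 2 and shRNA2 for knockdown cells, and as scrambled replicate 1, scrambled replicate 2 and wild type for control cells. A level is the deposited log2 value of a gene's probe set, and levels of different genes are not compared.

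The knockdown could not be checked, because HOTAIRM1 had no named probe set. Of 9 listed markers of promyelocytes 8 were measured, at 7.56 to 13.81, with MPO at 12.67 to 13.81 and CTSG at 7.56 to 11.45. With ATRA 1 was called higher and 3 lower in knockdown cells, and 1 and 2 in control cells (adjusted p under 0.05 in limma's test). Of 9 listed markers of granulocytic maturation 8 were measured, and 8 had a positive change in knockdown and in control cells. Of these 8, 8 were called higher in knockdown cells and 5 in control cells. Of all genes 10.1% and 15.2% were called higher there, and 14.7% and 20.9% lower. T cell, B cell, and erythroid and megakaryocyte markers lay at 6.19 to 8.61, 5.27 to 10.91 and 5.47 to 9.11. With ATRA 0 of 6, 0 of 4 and 0 of 6 of these were higher in knockdown cells, and 2 of 6, 0 of 4 and 2 of 6 in control cells, while 1 B cell marker was lower in each. The part of these markers in the results was not tested. The untreated scrambled replicate 2 array stood apart. On principal component 1, which held 66.7% of the variance, it lay at -10.6, while the ATRA arrays lay at 20.8 to 43.5 and the other untreated arrays at -41.2 to -32.5. Its levels of TGM2 and ITGAM, which rise as these cells mature, were 12.86 and 10.16, against 7.93 to 8.30 and 7.31 to 8.56 on the other untreated arrays, where the ATRA arrays lay at 13.49 to 13.85 and 10.38 to 10.97. Its CD79A level of 10.91 lay above both, at 7.87 to 8.57 on the other untreated arrays and 8.32 to 8.78 on the ATRA arrays. The other B cell markers CD79B, MS4A1 and PAX5 were at 8.45, 5.72 and 7.58 on it, against 8.29 to 8.91, 5.27 to 5.69 and 7.70 to 7.86 on the other untreated arrays. For the autophagy genes it was the highest of the 6 untreated arrays for 6 of the 10 genes called higher with ATRA in control cells and the lowest for 4 of the 5 called lower. Over all genes it was the highest for 31.8% of those called higher there and the lowest for 46.9% of those called lower. It is called untreated here as its label has it, but whether that label is right could not be settled from these files, so the untreated control mean is open to that doubt. Only some of the results that turn on it are given without it too. The other values that use the untreated control mean include it.

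With ATRA some autophagy genes rose and others fell. The cargo receptor SQSTM1, the adaptor WDFY3, the phosphoinositide binder WIPI1, the conjugation factors ATG7 and ATG16L2 and the ATG8 proteins GABARAP and GABARAPL1 rose in knockdown and in control cells, while the lipid kinase subunit PIK3R4, the lipid carrier ATG2B and the mitophagy receptor BNIP3 fell in both. The core of the initiation complex did not pass the test in knockdown or control cells. In knockdown cells 11 of the 39 genes were higher and 3 lower with ATRA in limma's moderated test at an adjusted p under 0.05, where 10.1% of all 18404 genes were higher and 14.7% lower. In control cells 10 were higher and 5 lower, where 15.2% of all genes were higher and 20.9% lower. Counted in either direction, 35.9% of the autophagy genes passed in knockdown cells, against 24.8% of all genes, and 38.5% passed in control cells, against 36.1% of all genes. An unadjusted p under 0.05 was found for 18 of the 39 in knockdown cells, against 34.6% of all genes, and for 19 in control cells, against 47% of all genes. The 3 treated arrays lay all above the 3 untreated ones for 13 genes and all below for 7 in knockdown cells, where 16.7% and 24.6% of all genes did, and for 12 and 10 in control cells, where 25.2% and 23.4% did. The median change over the 39 genes was 0.01 on the log2 scale in knockdown cells and 0.04 in control cells, beside -0.03 and 0.05 over all genes. In RNA of whole cultures, fewer cells of a type and less RNA per cell cannot be told apart.

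The knockdown and control comparisons share no arrays, though 1 estimate of the spread serves both. The 9 genes called higher in both were ATG2A, ATG9A, WIPI1, ATG7, ATG16L2, GABARAP, GABARAPL1, SQSTM1 and WDFY3, and the 3 called lower in both were PIK3R4, ATG2B and BNIP3. MAP1LC3B and NBR1 were called higher in knockdown cells alone, OPTN was called higher in control cells alone, and WIPI2 and ATG16L1 were called lower in control cells alone. None of these 5 passed the test of the difference between the responses. No gene was called in opposite directions. The other 22 passed in neither. The share of all genes called in both comparisons was not computed, so these counts are not read as particular to the autophagy genes. Without the untreated scrambled replicate 2 array, 11 genes were higher and 5 lower in control cells: the call of ATG9A was lost (0.37, adjusted p = 0.0568), and ATG12 (0.45, adjusted p = 0.0211) and NBR1 (0.63, adjusted p = 0.0209) were added. Of all genes 13.2% were higher and 20.4% lower in control cells without that array.

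**Figure D1:**
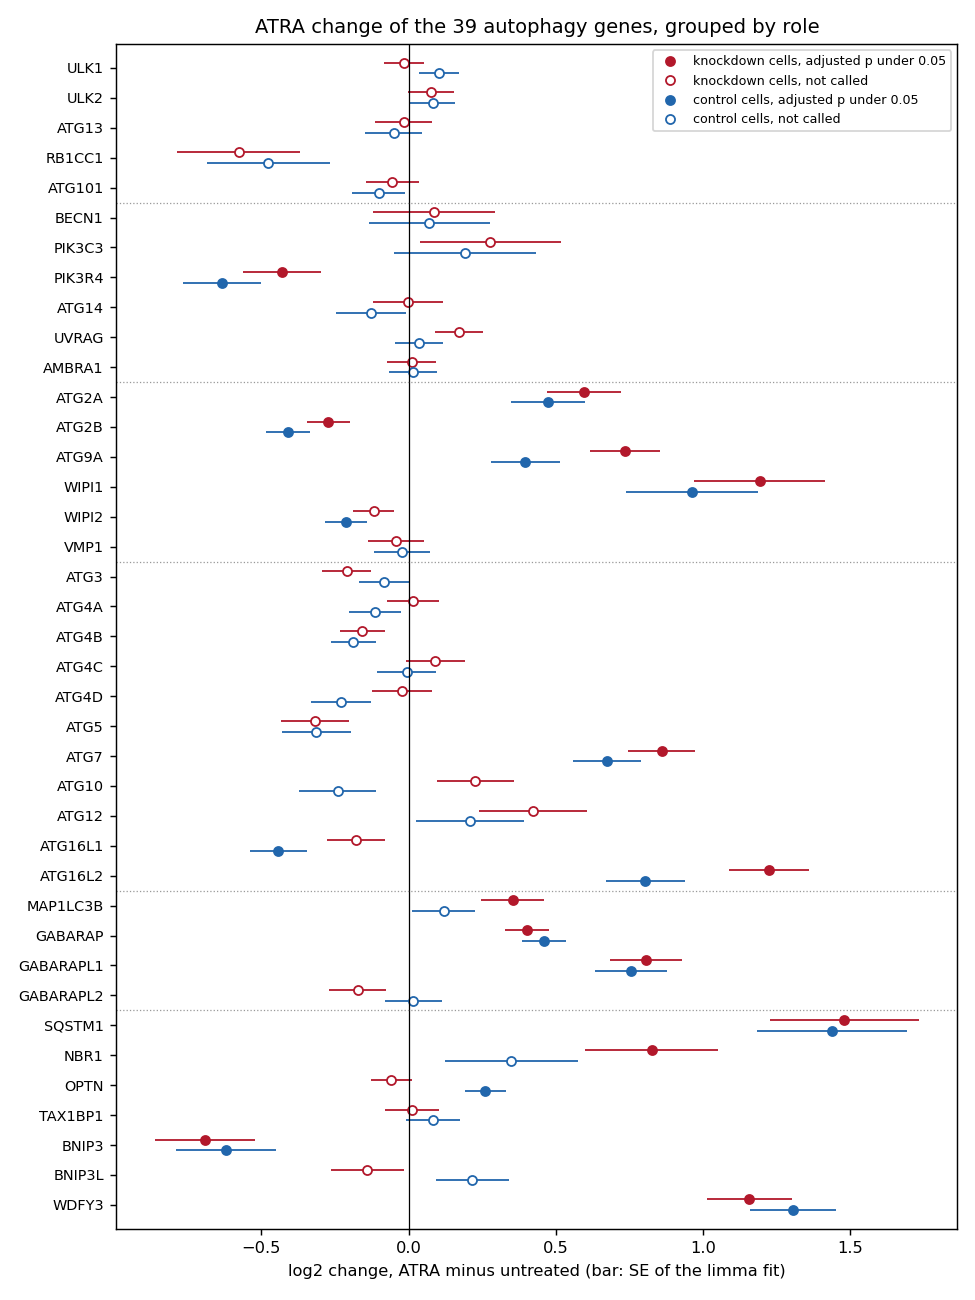
Log2 change with ATRA (ATRA minus untreated, horizontal axis) of each of the 39 autophagy genes in knockdown cells (red, upper point of each pair) and control cells (blue), grouped by role between dotted lines, with bars of 1 SE of the limma fit. Filled points passed an adjusted p of 0.05; SQSTM1 lies furthest right at 1.48 and 1.44, and BNIP3 furthest left in knockdown cells at -0.69.

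Several transcription factors of autophagy genes, TFEB and TFE3 among them, bind the hexamer CACGTG, so the RefSeq promoter windows of the genes (GRCh38.p14, 250 bases before the transcript start to 50 after) were read for it. Of the 39 genes, 34 had a window, 42 windows in all. CACGTG, which reads the same on both strands, lay in 3 of these 42 windows, those of BNIP3, ATG14 and ATG3, against 7.26% of all 35116 windows. GTAAACA, the core of FOXO sites searched on both strands, was in 0 of the 42, against 3.42% of all windows. BNIP3 fell with ATRA and ATG14 and ATG3 did not pass. The 250 bases before the start are shown for these 3 genes, with CACGTG in capitals, and for WIPI1 and GABARAPL1, taken after their values were seen as genes that rose in both knockdown and control cells and whose windows hold no CACGTG.
BNIP3, chr10:131981924-131982173, minus strand: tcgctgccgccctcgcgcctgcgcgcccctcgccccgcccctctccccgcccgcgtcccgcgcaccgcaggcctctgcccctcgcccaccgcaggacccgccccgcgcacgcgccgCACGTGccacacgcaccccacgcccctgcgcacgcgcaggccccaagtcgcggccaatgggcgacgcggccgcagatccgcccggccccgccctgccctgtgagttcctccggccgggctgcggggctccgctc
ATG14, chr14:55411831-55412080, minus strand: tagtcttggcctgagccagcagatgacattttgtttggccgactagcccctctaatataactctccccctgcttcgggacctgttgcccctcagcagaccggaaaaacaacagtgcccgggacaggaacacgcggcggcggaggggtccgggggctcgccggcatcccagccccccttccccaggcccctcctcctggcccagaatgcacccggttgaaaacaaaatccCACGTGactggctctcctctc
ATG3, chr3:112561963-112562212, minus strand: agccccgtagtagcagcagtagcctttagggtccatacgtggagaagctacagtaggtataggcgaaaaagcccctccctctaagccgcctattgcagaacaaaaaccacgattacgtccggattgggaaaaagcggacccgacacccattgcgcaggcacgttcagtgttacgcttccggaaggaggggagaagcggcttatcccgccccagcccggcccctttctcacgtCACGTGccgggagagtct
WIPI1, chr17:68457497-68457746, minus strand: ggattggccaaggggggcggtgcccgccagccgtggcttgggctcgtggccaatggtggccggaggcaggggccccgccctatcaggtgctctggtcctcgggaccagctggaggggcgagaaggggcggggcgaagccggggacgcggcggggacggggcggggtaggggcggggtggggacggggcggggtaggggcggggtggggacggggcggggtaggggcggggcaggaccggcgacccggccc
GABARAPL1, chr12:10212627-10212876, plus strand: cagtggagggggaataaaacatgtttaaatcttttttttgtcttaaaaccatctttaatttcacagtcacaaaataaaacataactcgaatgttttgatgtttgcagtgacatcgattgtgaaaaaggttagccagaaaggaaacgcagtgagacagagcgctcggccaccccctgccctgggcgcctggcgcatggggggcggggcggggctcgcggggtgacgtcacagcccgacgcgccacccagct
The hexamer lay at -134 to -129 from the BNIP3 start, at -21 to -16 from the ATG14 start and at -18 to -13 from the ATG3 start, and ATG3 held it again at 6 to 11, past the start. The printed BNIP3 and WIPI1 stretches were 81.6% and 79.6% G or C and that of GABARAPL1 51.6%, beside a median of 58.0% over all windows. A match of letters is a description and not a bound site.

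Of the 5 genes of the initiation complex, 0 passed in limma's test in either direction in knockdown cells and 0 in control cells, and 1 had an unadjusted p under 0.05 in each. RB1CC1, the scaffold that holds the ULK kinases, was that gene, at -0.58 in knockdown cells (SE 0.21, adjusted p = 0.0659) and -0.48 in control cells (SE 0.21, adjusted p = 0.094). Its levels were 7.53, 7.41 and 7.33 in ATRA-treated knockdown cells, against 7.68, 7.75 and 8.57 in untreated knockdown cells, so that the shRNA2 line alone spanned 1.24. Left out, the untreated shRNA2 array took the control call past the threshold (-0.48, adjusted p = 0.0161), through the shared spread, and without untreated shRNA1 replicate 1 the knockdown call passed (-0.74, adjusted p = 0.0361). With array weights the control change passed (-0.46, adjusted p = 0.0346). The kinase ULK1 had a difference of -0.02 and 0.10 in knockdown and control cells, ULK2 of 0.08 and 0.08, and the partner subunits ATG13 and ATG101 of -0.02 and -0.05 and of -0.06 and -0.10. Their adjusted p ran from 0.244 upward. ULK2 is among the 6134 genes with the lowest levels.

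In the PI3-kinase complex 1 of 6 genes was lower and 0 higher in each of the knockdown and control comparisons. PIK3R4, the regulatory subunit that anchors the lipid kinase PIK3C3, had levels of 9.44, 9.54 and 9.45 in ATRA-treated knockdown cells, against 9.92, 9.92 and 9.87 in untreated knockdown cells. In control cells its levels were 9.33, 9.46 and 8.85 in ATRA-treated control cells, against 9.87, 9.7 and 9.98 in untreated control cells. All 6 ATRA arrays lay below all 6 untreated arrays. It fell by 0.43 in knockdown cells (SE 0.13, adjusted p = 0.033) and by 0.63 in control cells (SE 0.13, adjusted p = 0.00343), or 1.35-fold and 1.55-fold lower. The wild type array was the lowest of the treated controls, and on scrambled and shRNA1 arrays alone the control change was -0.39 (adjusted p = 0.0425). The knockdown call was lost when any 1 of the 6 knockdown arrays was left out (-0.46 to -0.41, adjusted p = 0.0612 to 0.0903), with the replicate block (adjusted p = 0.0746) and with quantile normalization repeated (-0.39, adjusted p = 0.0616).

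The other subunits of this complex did not pass. PIK3C3 itself had a difference of 0.28 in knockdown cells and 0.19 in control cells (SE 0.24 each), and its partner BECN1, which holds the complex together, of 0.09 and 0.07 (SE 0.21 each). Both had wide spread among untreated controls: BECN1 was at 9.39, 10.34 and 9.99 there and PIK3C3 at 8.77, 9.64 and 9.15, with scrambled replicate 1 lowest and scrambled replicate 2 highest for both. ATG14, which directs the complex to autophagosomes, had a difference of 0.00 and -0.13, UVRAG, which forms the endosomal version, of 0.17 and 0.04, and AMBRA1, a regulator of BECN1, of 0.01 and 0.01, in knockdown and control cells. With quantile normalization repeated, UVRAG passed in knockdown cells (0.25, adjusted p = 0.0314).

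Among the genes for lipid supply and the phagophore membrane, 3 of 6 were higher and 1 lower in knockdown cells, and 3 were higher and 2 lower in control cells. WIPI1, which binds the lipid mark, had levels of 9.55, 10.06 and 9.68 in ATRA-treated knockdown cells, against 8.55, 8.78 and 8.39 in untreated knockdown cells. Its levels were 10.24, 10.31 and 9.78 in ATRA-treated control cells, against 8.77, 9.67 and 9.0 in untreated control cells. The ATRA arrays were all higher than the untreated arrays within knockdown cells and within control cells, but untreated scrambled replicate 2, at 9.67, reached past the treated shRNA1 replicate 1 array. The rise was 1.19 (SE 0.22, adjusted p = 0.00258) in knockdown cells and 0.96 (SE 0.22, adjusted p = 0.00611) in control cells, and 1.22 in control cells without that array. WIPI2, its relative that binds ATG16L1, was at 9.27, 9.26 and 9.23 in ATRA-treated knockdown cells, against 9.36, 9.36 and 9.4 in untreated knockdown cells. In control cells WIPI2 was at 9.23, 9.0 and 9.14 in ATRA-treated control cells, against 9.36, 9.28 and 9.37 in untreated control cells. The ATRA arrays lay below the untreated ones in both, by small amounts: -0.12 (SE 0.07, adjusted p = 0.273) in knockdown cells, which did not pass, and -0.21 (SE 0.07, adjusted p = 0.035) in control cells. The control call of WIPI2 was lost without wild type untreated, scrambled replicate 1 untreated, wild type ATRA or scrambled replicate 2 ATRA (-0.22 to -0.15, adjusted p = 0.0661 to 0.13), on scrambled and shRNA1 arrays alone (-0.21, adjusted p = 0.219), with a trended and robust eBayes (adjusted p = 0.059), with the replicate block (adjusted p = 0.061) and with quantile normalization repeated (-0.05, adjusted p = 0.605).

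The lipid carriers ATG2A and ATG2B moved in opposite directions. ATG2A had levels of 9.38, 9.17 and 9.27 in ATRA-treated knockdown cells, against 8.65, 8.62 and 8.77 in untreated knockdown cells, and of 9.49, 9.41 and 9.33 in ATRA-treated control cells, against 8.78, 9.27 and 8.75 in untreated control cells. Treated arrays lay above untreated ones in both, though untreated scrambled replicate 2 came within the treated knockdown range. It rose by 0.59 (SE 0.12, adjusted p = 0.0049) in knockdown cells and 0.47 (SE 0.12, adjusted p = 0.0124) in control cells, where the call was lost without the untreated wild type array (0.38, adjusted p = 0.0595) and on scrambled and shRNA1 arrays alone (0.42, adjusted p = 0.123). ATG2B was at 9.46, 9.38 and 9.39 in ATRA-treated knockdown cells, against 9.69, 9.76 and 9.59 in untreated knockdown cells. In control cells it was at 9.14, 9.17 and 9.16 in ATRA-treated control cells, against 9.56, 9.47 and 9.68 in untreated control cells, with the 3 treated arrays close together. All 6 ATRA arrays lay below all 6 untreated arrays. The change was -0.27 (SE 0.07, adjusted p = 0.0189) in knockdown cells and -0.41 (SE 0.07, adjusted p = 0.00145) in control cells. Its second probe set, not used in the fit, had a difference of -0.30 and -0.59. The knockdown call was lost without shRNA1 replicate 1 untreated, shRNA1 replicate 2 untreated, shRNA1 replicate 2 ATRA or shRNA2 ATRA (-0.27 to -0.23, adjusted p = 0.0536 to 0.0775) and on scrambled and shRNA1 arrays alone (-0.31, adjusted p = 0.071), and quantile normalization repeated moved the control change to -0.24 (adjusted p = 0.0372).

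ATG9A, the scramblase carried on the vesicles that seed the membrane, rose by 0.73 (SE 0.12, adjusted p = 0.00117) in knockdown cells and 0.40 (SE 0.12, adjusted p = 0.0216) in control cells. Its levels were 9.67, 9.43 and 9.79 in ATRA-treated knockdown cells, against 9.09, 8.94 and 8.67 in untreated knockdown cells, and 9.5, 9.38 and 9.31 in ATRA-treated control cells, against 8.96, 8.93 and 9.09 in untreated control cells. The treated shRNA2 array was the highest of all 12 and the untreated shRNA2 array the lowest, and within knockdown and within control cells the groups did not overlap. The control call was lost without scrambled replicate 1 untreated, scrambled replicate 2 untreated or scrambled replicate 1 ATRA (0.35 to 0.38, adjusted p = 0.0537 to 0.0705). VMP1, a scramblase of the endoplasmic reticulum, had a difference of -0.04 and -0.02 in knockdown and control cells (SE 0.09 each) and did not pass.

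Of the 11 conjugation genes, 2 were higher and 0 lower in knockdown cells, and 2 were higher and 1 lower in control cells. The 2 that rose were ATG7 and ATG16L2 in both. ATG7, the enzyme that activates ATG12 and the ATG8 proteins, had levels of 10.49, 10.4 and 10.39 in ATRA-treated knockdown cells, against 9.5, 9.76 and 9.44 in untreated knockdown cells. In control cells they were 10.37, 10.25 and 10.4 in ATRA-treated control cells, against 9.42, 9.85 and 9.73 in untreated control cells. All 6 treated arrays lay above all 6 untreated arrays. The rise was 0.86 (SE 0.12, adjusted p = 0.000547) in knockdown cells and 0.67 (SE 0.12, adjusted p = 0.00103) in control cells, or 1.81-fold and 1.59-fold. ATG16L2, a relative of the scaffold ATG16L1, was at 10.28, 10.28 and 9.97 in ATRA-treated knockdown cells, against 9.11, 8.9 and 8.86 in untreated knockdown cells. In control cells ATG16L2 was at 9.99, 9.74 and 9.97 in ATRA-treated control cells, against 8.85, 9.36 and 9.08 in untreated control cells. Its treated arrays all exceeded its untreated arrays, and the rise was 1.22 (SE 0.14, adjusted p = 0.000236) in knockdown cells and 0.80 (SE 0.14, adjusted p = 0.000938) in control cells.

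ATG16L1, the scaffold that places the ATG12 and ATG5 conjugate on the membrane, went the other way, with levels of 8.41, 8.59 and 8.34 in ATRA-treated knockdown cells, against 8.56, 8.72 and 8.6 in untreated knockdown cells. In control cells they were 8.47, 8.22 and 8.12 in ATRA-treated control cells, against 8.67, 8.73 and 8.73 in untreated control cells. The groups overlapped in knockdown cells, where treated shRNA1 replicate 2 lay within the untreated range, and did not overlap in control cells. The change was -0.18 (SE 0.10, adjusted p = 0.228) in knockdown cells, which did not pass, and -0.44 (SE 0.10, adjusted p = 0.0047) in control cells, where on scrambled and shRNA1 arrays alone it no longer passed (-0.36, adjusted p = 0.092).

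The other 8 conjugation genes did not pass in either comparison. ATG5, the partner of ATG12, was nearest at -0.32 in knockdown cells (SE 0.12, adjusted p = 0.0701) and -0.31 in control cells (SE 0.12, adjusted p = 0.0545). Its levels were 9.98, 9.72 and 9.71 in ATRA-treated knockdown cells, against 10.1, 10.07 and 10.19 in untreated knockdown cells, and 9.82, 10.06 and 9.62 in ATRA-treated control cells, against 10.0, 10.21 and 10.24 in untreated control cells, with treated arrays below untreated ones in knockdown cells and an overlap in control cells. ATG5 passed without scrambled replicate 1 untreated (-0.39, adjusted p = 0.0368), scrambled replicate 2 ATRA (-0.43, adjusted p = 0.0159) or shRNA1 replicate 1 ATRA (-0.31, adjusted p = 0.047) in control cells. In knockdown cells it passed without wild type ATRA (-0.32, adjusted p = 0.0423), scrambled replicate 2 ATRA (-0.32, adjusted p = 0.0404) or shRNA1 replicate 1 ATRA (-0.41, adjusted p = 0.0416). With array weights it passed in both, at -0.31 in knockdown cells (adjusted p = 0.0291) and -0.36 in control cells (adjusted p = 0.00818), and without the 6134 lowest genes in control cells (-0.31, adjusted p = 0.0464). ATG12, the ubiquitin-like protein itself, had a difference of 0.42 (SE 0.18, adjusted p = 0.123) in knockdown cells and 0.21 (SE 0.18, adjusted p = 0.389) in control cells. Its untreated control levels of 8.5, 9.38 and 8.79 spread widely, and without untreated scrambled replicate 2 it passed in both, at 0.42 in knockdown cells (adjusted p = 0.0199) and 0.45 in control cells (adjusted p = 0.0211). With array weights it passed in knockdown cells (0.45, adjusted p = 0.0226).

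The E2 enzymes ATG3 and ATG10 had differences of -0.21 and 0.23 in knockdown cells and -0.08 and -0.24 in control cells. The ATG4 proteases, which trim ATG8 proteins and release them from the membrane, ran from -0.16 (ATG4B) to 0.09 (ATG4C) in knockdown cells and from -0.23 (ATG4D) to -0.01 (ATG4C) in control cells. A second probe set of ATG4B, not used in the fit, had a difference of -0.63 in knockdown cells and -0.35 in control cells, so the probe sets of this gene differed in size of change while sharing its direction. Without scrambled replicate 1 ATRA the control change of ATG4D passed (-0.32, adjusted p = 0.0332).

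**Figure D2:**
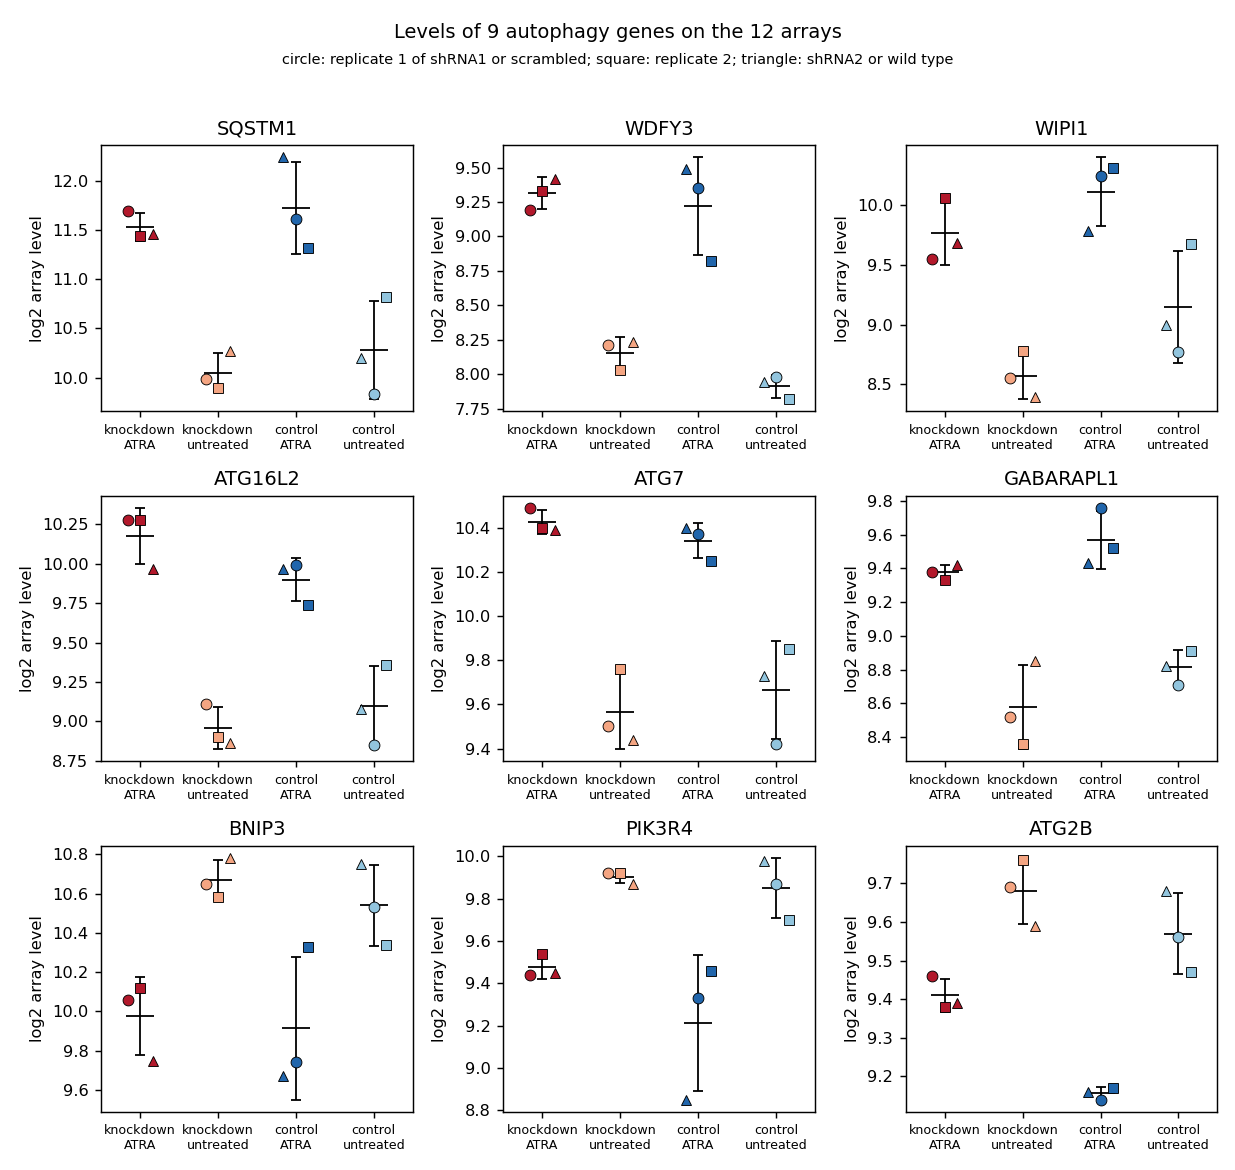
Log2 array level (vertical axis, different range in each panel) of 9 autophagy genes in ATRA-treated knockdown, untreated knockdown, ATRA-treated control and untreated control cells, 3 arrays each, with the mean and 1 SD as horizontal bar and whiskers. Circles and squares are replicates 1 and 2 of shRNA1 or scrambled cells and triangles are shRNA2 or wild type; the light blue square of untreated scrambled replicate 2 lies high for WIPI1 at 9.67 and SQSTM1 at 10.82.

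In the ATG8 family 3 of 4 genes were higher and 0 lower in knockdown cells, and 2 were higher and 0 lower in control cells. GABARAP had levels of 12.48, 12.54 and 12.65 in ATRA-treated knockdown cells, against 12.14, 12.25 and 12.07 in untreated knockdown cells. In control cells they were 12.55, 12.57 and 12.65 in ATRA-treated control cells, against 12.09, 12.1 and 12.2 in untreated control cells. The 6 treated arrays lay at 12.48 or above and the 6 untreated arrays at 12.25 or below. The rise was 0.40 (SE 0.07, adjusted p = 0.00249) in knockdown cells and 0.46 (SE 0.07, adjusted p = 0.000759) in control cells, and the knockdown call was lost on scrambled and shRNA1 arrays alone (0.32, adjusted p = 0.0615). GABARAPL1, which is closely related to GABARAP, was at 9.38, 9.33 and 9.42 in ATRA-treated knockdown cells, against 8.52, 8.36 and 8.85 in untreated knockdown cells, and at 9.76, 9.52 and 9.43 in ATRA-treated control cells, against 8.71, 8.91 and 8.82 in untreated control cells. Again all 6 treated arrays exceeded all 6 untreated ones. It rose by 0.81 (SE 0.12, adjusted p = 0.000926) in knockdown cells and 0.75 (SE 0.12, adjusted p = 0.000756) in control cells, or 1.75-fold and 1.69-fold.

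GABARAPL2, the other member of this branch, did not pass. Its levels were 10.89, 10.98 and 11.2 in ATRA-treated knockdown cells, against 11.09, 11.12 and 11.37 in untreated knockdown cells, and 11.15, 11.24 and 11.22 in ATRA-treated control cells, against 11.15, 11.24 and 11.17 in untreated control cells. The groups overlapped in both. The change was -0.17 (SE 0.10, adjusted p = 0.246) in knockdown cells and 0.02 (SE 0.10, adjusted p = 0.909) in control cells, a value whose sign turned in 3 of the alternatives run. MAP1LC3B, the LC3 protein most often followed as a mark of autophagosomes, was at 8.03, 8.22 and 8.13 in ATRA-treated knockdown cells, against 7.75, 7.79 and 7.78 in untreated knockdown cells. In control cells it was at 8.22, 8.08 and 8.33 in ATRA-treated control cells, against 7.94, 8.34 and 7.99 in untreated control cells. Treated arrays exceeded untreated ones in knockdown cells, and the groups overlapped in control cells, where untreated scrambled replicate 2 was the highest of the 6. The change was 0.35 (SE 0.11, adjusted p = 0.0297) in knockdown cells and 0.12 (SE 0.11, adjusted p = 0.397) in control cells, and 0.24 in control cells without that array. The knockdown call was lost without any 1 of the knockdown arrays other than shRNA1 replicate 1 ATRA (0.31 to 0.36, adjusted p = 0.0689 to 0.106), with the replicate block (adjusted p = 0.0702) and on scrambled and shRNA1 arrays alone (0.36, adjusted p = 0.165). A near-identical copy, MAP1LC3B2, and copies of GABARAPL1 elsewhere in the genome could share their probes, so these levels are uncertain in that respect.

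Of the 7 cargo receptors and adaptors, 3 were higher and 1 lower with ATRA in knockdown cells, and 3 were higher and 1 lower in control cells. SQSTM1, the p62 receptor of ubiquitinated cargo, had levels of 11.7, 11.44 and 11.46 in ATRA-treated knockdown cells, against 9.99, 9.89 and 10.27 in untreated knockdown cells. In control cells they were 11.61, 11.32 and 12.24 in ATRA-treated control cells, against 9.83, 10.82 and 10.2 in untreated control cells. Every treated array lay above every untreated one, the nearest pair being treated scrambled replicate 2 and untreated scrambled replicate 2. The rise was 1.48 (SE 0.25, adjusted p = 0.0016) in knockdown cells and 1.44 (SE 0.25, adjusted p = 0.00125) in control cells, or 2.79-fold and 2.71-fold, and 1.71 in control cells without untreated scrambled replicate 2. WDFY3, a large scaffold that brings aggregates to the membrane, was at 9.19, 9.33 and 9.42 in ATRA-treated knockdown cells, against 8.21, 8.03 and 8.23 in untreated knockdown cells. In control cells WDFY3 was at 9.35, 8.82 and 9.49 in ATRA-treated control cells, against 7.98, 7.82 and 7.94 in untreated control cells. The groups were far apart in both, with a rise of 1.16 (SE 0.14, adjusted p = 0.000423) in knockdown cells and 1.31 (SE 0.14, adjusted p = 0.000106) in control cells.

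NBR1, a receptor that works with SQSTM1, was at 9.91, 9.87 and 9.73 in ATRA-treated knockdown cells, against 9.04, 9.24 and 8.76 in untreated knockdown cells. In control cells it was at 9.69, 9.73 and 9.42 in ATRA-treated control cells, against 8.68, 9.82 and 9.29 in untreated control cells. Treated arrays exceeded untreated ones in knockdown cells, while in control cells untreated scrambled replicate 2 was the highest of all 6. The change was 0.82 (SE 0.23, adjusted p = 0.0192) in knockdown cells and 0.35 (SE 0.23, adjusted p = 0.243) in control cells, and 0.63 in control cells without that array (adjusted p = 0.0209). The knockdown call was lost without shRNA2 untreated, shRNA1 replicate 1 ATRA or shRNA1 replicate 2 ATRA (0.70 to 0.81, adjusted p = 0.057 to 0.0791) and on scrambled and shRNA1 arrays alone (0.75, adjusted p = 0.166). OPTN, a receptor of bacteria and damaged mitochondria and likewise among the 6134 genes with the lowest levels, was at 6.93, 6.79 and 6.76 in ATRA-treated knockdown cells, against 6.88, 6.9 and 6.87 in untreated knockdown cells, and at 7.0, 6.98 and 7.14 in ATRA-treated control cells, against 6.76, 6.77 and 6.81 in untreated control cells. The groups overlapped in knockdown cells (-0.06 (SE 0.07, adjusted p = 0.639)), and in control cells all treated arrays were higher (0.26 (SE 0.07, adjusted p = 0.0147)). That control call was lost without the treated wild type array (0.21, adjusted p = 0.0614), on scrambled and shRNA1 arrays alone (0.22, adjusted p = 0.145) and with quantile normalization repeated (0.14, adjusted p = 0.161).

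BNIP3, a mitophagy receptor of the outer mitochondrial membrane known to be induced by low oxygen, fell. Its levels were 10.06, 10.12 and 9.75 in ATRA-treated knockdown cells, against 10.65, 10.58 and 10.78 in untreated knockdown cells. In control cells they were 9.74, 10.33 and 9.67 in ATRA-treated control cells, against 10.53, 10.34 and 10.75 in untreated control cells. Within control cells treated scrambled replicate 2 lay just below the lowest untreated array, which was untreated scrambled replicate 2, and the change of its line was 0.00, against -1.07 in wild type and -0.78 in scrambled replicate 1 cells. The change was -0.69 (SE 0.17, adjusted p = 0.011) in knockdown cells and -0.62 (SE 0.17, adjusted p = 0.0147) in control cells. The control call was lost without wild type untreated, wild type ATRA or scrambled replicate 1 ATRA (-0.53 to -0.50, adjusted p = 0.0539 to 0.0669) and with quantile normalization repeated (-0.43, adjusted p = 0.0828), and the knockdown call without shRNA2 ATRA (-0.58, adjusted p = 0.0512). Both calls were lost on scrambled and shRNA1 arrays alone, at -0.53 in knockdown cells (adjusted p = 0.107) and -0.39 in control cells (adjusted p = 0.186). Processed copies of BNIP3 in the genome may share its probes. BNIP3L, its relative that clears mitochondria from maturing red cells, had a difference of -0.14 (SE 0.12, adjusted p = 0.483) in knockdown cells and 0.22 (SE 0.12, adjusted p = 0.189) in control cells, and TAX1BP1, a receptor of ubiquitinated aggregates, of 0.01 and 0.08. With quantile normalization repeated, BNIP3L passed in control cells (0.38, adjusted p = 0.0478).

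Line by line, the genes differed in how evenly they moved. For scrambled and shRNA1 cells, treated and untreated arrays are matched by replicate number alone, and the labels do not say that these are pairs. Matched by shRNA and replicate number, the change of SQSTM1 was 1.70 in shRNA1 replicate 1, 1.55 in shRNA1 replicate 2 and 1.19 in shRNA2 cells, and 1.78 in scrambled replicate 1, 0.49 in scrambled replicate 2 and 2.04 in wild type cells. The scrambled replicate 2 line had the smallest of the 6 changes for SQSTM1, as it did for WIPI1 (0.64, against 0.78 to 1.47), ATG7 (0.40, against 0.63 to 0.99) and ATG16L2 (0.39, against 0.89 to 1.38). Its untreated array, whose label is in doubt, was the highest of the 6 untreated arrays for these genes, at 10.82, 9.67, 9.85 and 9.36. Its treated array was the highest of all 12 for WIPI1, at 10.31. GABARAP was even, at 0.29 to 0.58 in all 6 lines. The median over the 39 genes ran from 0.02 to 0.05 in the 3 knockdown lines and from -0.04 to 0.06 in the 3 control lines, with 21 to 23 and 16 to 27 genes above 0. The median size of change, sign aside, was 0.17 to 0.28 over the 39 genes and 0.17 to 0.20 over all genes in knockdown lines, and 0.21 to 0.28 and 0.19 to 0.28 in control lines.

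**Figure D3:**
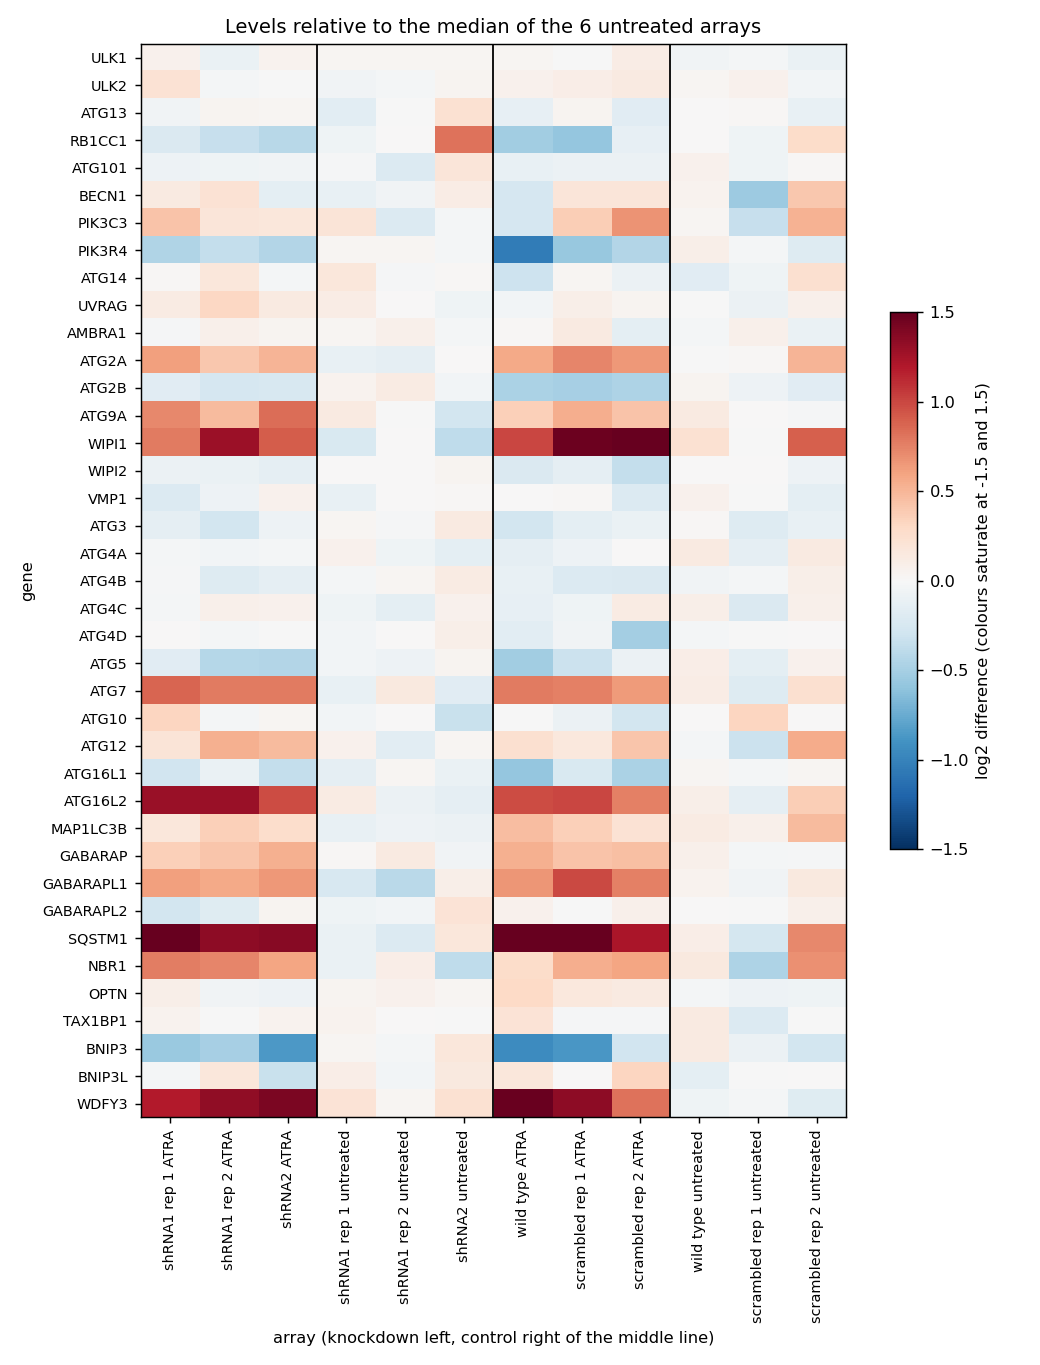
Level of each autophagy gene on each of the 12 arrays (columns, knockdown to the left of control and ATRA to the left of untreated) minus the median of that gene over the 6 untreated arrays, on a log2 colour scale from -1.5 (blue) to 1.5 (red). Rows that are red under ATRA include SQSTM1, WDFY3, WIPI1, ATG16L2, ATG7 and GABARAPL1. The column of untreated scrambled replicate 2 at the right edge is redder than its neighbours in several of them.

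Knockdown was then set against control. These comparisons use the same arrays as the ATRA comparisons, so their values are given side by side and not as separate evidence. After ATRA, 0 of the 39 genes were called by limma, where 0.0543% of all 18404 genes were higher and 0.00543% lower in knockdown cells, 0.0598% in all, and 3 had an unadjusted p under 0.05, where 28.1% of all genes did. Before ATRA 0 were called, where 0% of all genes were called in either direction, and 2 had an unadjusted p under 0.05, beside 3.95% of all genes. The median difference over the 39 genes was 0.03 after ATRA and 0.01 before it. Nearest to the threshold after ATRA was ATG2B, at 9.46, 9.38 and 9.39 in ATRA-treated knockdown cells, against 9.14, 9.17 and 9.16 in ATRA-treated control cells. All 3 knockdown arrays were higher, by 0.25 (SE 0.07, adjusted p = 0.0758), with a 95% interval of 0.09 to 0.41. OPTN was at 6.93, 6.79 and 6.76 in ATRA-treated knockdown cells, against 7.0, 6.98 and 7.14 in ATRA-treated control cells. All 3 knockdown arrays were lower, by -0.21 (SE 0.07, adjusted p = 0.0973), with an interval of -0.37 to -0.05. ATG4D was at 10.59, 10.56 and 10.58 in ATRA-treated knockdown cells, against 10.53, 10.07 and 10.43 in ATRA-treated control cells. Here too the groups did not overlap (0.24 (SE 0.10, adjusted p = 0.158)), with the treated scrambled replicate 2 array far below the rest, and without it the difference was 0.10 (adjusted p = 0.42). With quantile normalization repeated the 3 differences were 0.13, -0.10 and 0.14. In all, 6 genes had all knockdown arrays above the control arrays after ATRA and 2 had them all below, where 14.3% and 20.7% of all genes did.

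Before ATRA the smallest p was that of MAP1LC3B, at 7.75, 7.79 and 7.78 in untreated knockdown cells, against 7.94, 8.34 and 7.99 in untreated control cells. All 3 knockdown arrays were lower, by -0.32 (SE 0.11, unadjusted p = 0.0118 from limma, adjusted p = 0.999). Untreated scrambled replicate 2 was the highest control, and without it the difference was -0.19 (adjusted p = 0.9998). WIPI1 differed by -0.57 (SE 0.22, unadjusted p = 0.0247 from limma) and ATG2A by -0.26 (SE 0.12). Their groups overlapped, and without that array they were -0.31 and -0.09. In all, 1 gene lay lower and 3 lay higher on every knockdown array before ATRA, where 4.04% and 3.75% of all genes did. The other ATG8 genes differed before ATRA by 0.02 (GABARAP), -0.24 (GABARAPL1) and 0.01 (GABARAPL2), and after ATRA by -0.03, -0.19 and -0.18, with MAP1LC3B at -0.08.

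By construct, shRNA1 minus scrambled cells and shRNA2 minus wild type cells had the same sign for 24 of the 39 genes after ATRA and for 16 of 39 before it. These 2 differences share no array. In each state the second is 1 array minus 1 array, and wild type cells lack the vector. In it shRNA, vector and clone cannot be told apart. The share of same signs over all genes was not computed, so the counts are not read as agreement of the constructs. The medians of the 2 differences were 0.03 and 0.06 after ATRA and -0.02 and 0.01 before it.

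**Figure D4:**
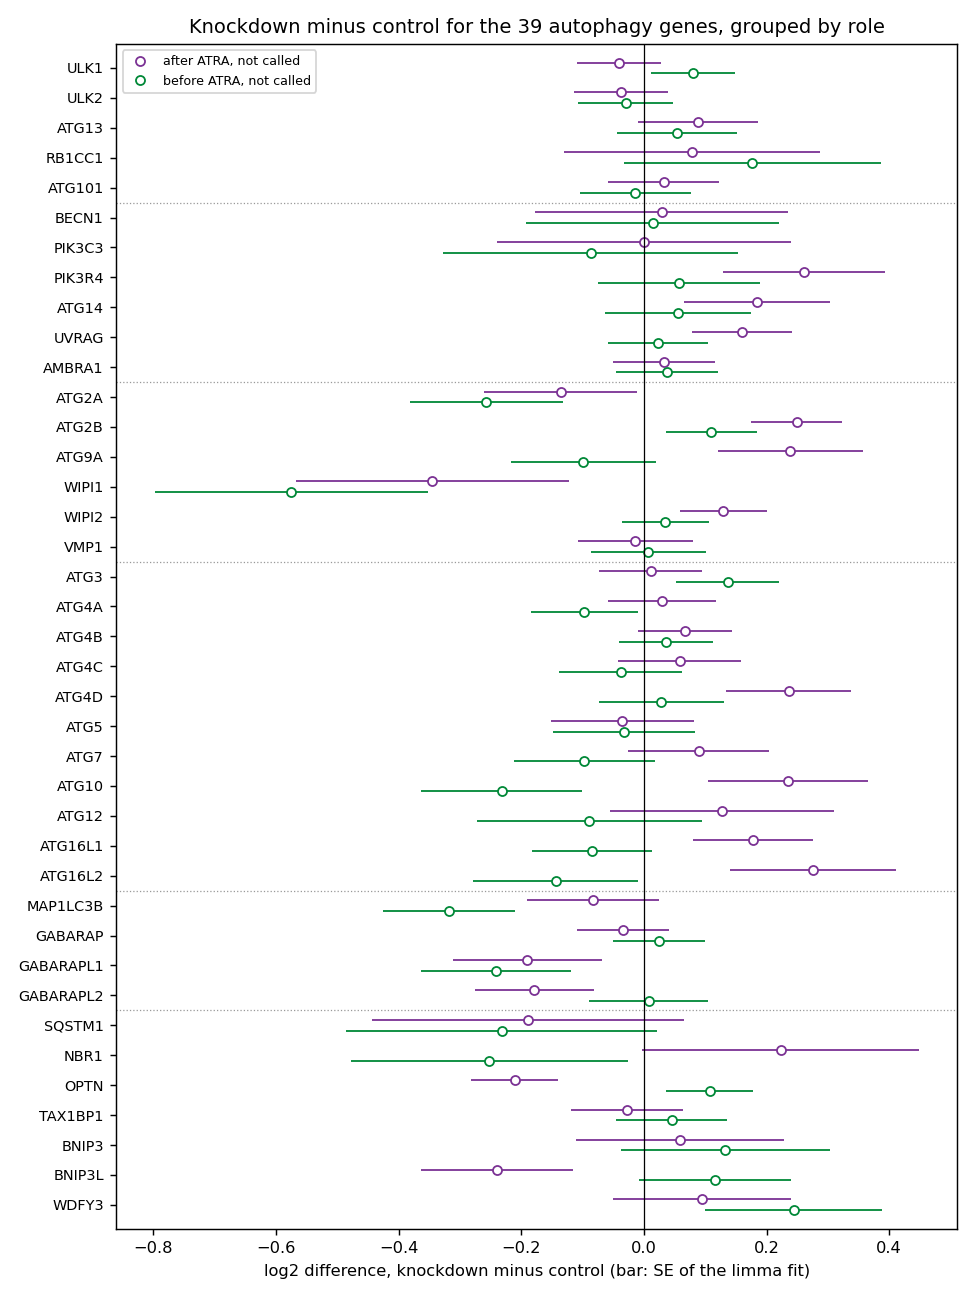
Log2 difference, knockdown minus control (horizontal axis), of each of the 39 autophagy genes after ATRA (purple, upper point of each pair) and before ATRA (green), grouped by role between dotted lines, with bars of 1 SE of the limma fit. All points are open because none passed an adjusted p of 0.05; the furthest from 0 is WIPI1 at -0.57 before and -0.35 after ATRA.

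The difference between the ATRA responses, knockdown minus control, was called for 0 of the 39 genes, as for 0% of all 18404 genes. An unadjusted p under 0.05 was found for 3, beside 15.3% of all genes. OPTN had the smallest p, with changes by line of 0.05, -0.11 and -0.11 in knockdown cells, against 0.24, 0.21 and 0.33 in control cells, a difference of -0.32 (SE 0.10, adjusted p = 0.271) with a 95% interval of -0.54 to -0.10. With arrays matched by replicate number, which may not pair them, every knockdown line lay below every control line. That held for 2 of the 39 genes and 13.4% of all genes. The reverse held for 0 of the 39 and 9.16% of all genes. The changes by line of the E2 enzyme ATG10 were 0.36, -0.04 and 0.36 in knockdown lines, against -0.42, -0.29 and -0.01 in control lines, a difference of 0.47 (SE 0.18, adjusted p = 0.296), and the lines of each kind overlapped. Its levels were 8.49, 8.14 and 8.2 in ATRA-treated knockdown cells, against 8.13, 8.17 and 7.84 in untreated knockdown cells, and 8.08, 7.89 and 8.16 in ATRA-treated control cells, against 8.49, 8.18 and 8.17 in untreated control cells, with an overlap in knockdown cells, while in control cells the treated arrays lay just below the untreated ones. The changes by line of ATG16L2 were 1.17, 1.38 and 1.11 in knockdown lines, against 1.14, 0.39 and 0.89 in control lines, a difference of 0.42 (SE 0.19, adjusted p = 0.325). With 1 array left out the difference was 0.29 to 0.54.

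For the genes called in 1 comparison alone, the difference of the responses was 0.23 for MAP1LC3B, with a 95% interval of -0.09 to 0.56. With 1 array left out it was 0.11 to 0.31. The difference was 0.48 for NBR1 (-0.22 to 1.17). It was 0.09 for WIPI2 (-0.12 to 0.31) and 0.26 for ATG16L1 (-0.04 to 0.57). None of the 4 passed. For the genes that rose most, it was 0.04 for SQSTM1 (-0.74 to 0.83), -0.15 for WDFY3 (-0.60 to 0.30) and 0.23 for WIPI1 (-0.46 to 0.92). With 3 arrays an arm these intervals are wide, and differences as large as their ends remain compatible with the data. The intervals are for single genes, without adjustment over all genes.

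Of 79 further genes of the pathway listed by role, 73 were measured. With ATRA 20 were higher and 6 lower in knockdown cells and 16 were higher and 9 lower in control cells. In either direction that was 35.6% of the 73 in knockdown cells, against 24.8% of all genes, and 34.2% in control cells, against 36.1% of all genes. Genes of autophagosome fusion with the lysosome counted 7 higher and 1 lower of 14 in knockdown cells, and 4 and 1 in control cells. VPS41, a tether of the HOPS complex, rose by 0.94 (SE 0.07, adjusted p = 5.96e-05) and 0.69 (SE 0.07, adjusted p = 8.99e-05). The SNARE STX7 rose by 0.67 and 0.56, and TECPR1, a tether of the autophagosome, by 0.62 and 0.42. Other core factors counted 6 higher and 1 lower of 15 in knockdown cells, and 5 and 1 in control cells. RUBCNL, a positive regulator of the PI3-kinase complex, rose by 1.49 (SE 0.35, adjusted p = 0.0091) and 1.71 (SE 0.35, adjusted p = 0.00315), TP53INP2, which binds ATG8 proteins, rose by 0.66 and 0.84, and EI24, a protein of the endoplasmic reticulum, fell, at -0.54 and -0.57. Further cargo receptors counted 3 higher and 0 lower of 14 in knockdown cells, and 3 and 1 in control cells, with CALCOCO1 at 0.49 and 0.71, TOLLIP at 0.27 and 0.33, and the mitophagy receptor PHB2 lower in control cells at -0.48.

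Of 11 transcription factors of autophagy and lysosome genes measured, 3 were higher and 0 lower in knockdown cells and 4 and 0 in control cells. TFE3, which binds CACGTG sites, rose by 0.99 (SE 0.16, adjusted p = 0.00114) in knockdown cells and 0.81 (SE 0.16, adjusted p = 0.00227) in control cells. TFEB, its close relative, was at 7.81, 7.92 and 8.04 in ATRA-treated knockdown cells, against 7.78, 7.6 and 7.75 in untreated knockdown cells. In control cells TFEB was at 7.99, 8.06 and 8.28 in ATRA-treated control cells, against 7.77, 7.7 and 7.44 in untreated control cells. The change was 0.21 (SE 0.11, adjusted p = 0.196) in knockdown cells, which did not pass, and 0.47 (SE 0.11, adjusted p = 0.00604) in control cells, where the wild type line changed by 0.83 and the scrambled lines by 0.22 and 0.36. HIF1A, a factor of the low-oxygen response that is known to induce BNIP3, rose by 0.63 and 0.56 at the RNA level, while BNIP3 fell. A link between them was not tested.

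Nutrient-sensing genes counted 1 higher and 4 lower of 19 in knockdown cells, and 0 and 6 in control cells. MTOR, the kinase that holds the ULK1 complex inactive, was at 9.89, 9.93 and 9.84 in ATRA-treated knockdown cells, against 9.99, 9.99 and 9.97 in untreated knockdown cells. In control cells MTOR was at 9.69, 9.74 and 9.57 in ATRA-treated control cells, against 9.91, 10.18 and 9.98 in untreated control cells. All treated arrays lay below the untreated ones in both, and the change was -0.09 (SE 0.08, adjusted p = 0.466) in knockdown cells, which did not pass, and -0.35 (SE 0.08, adjusted p = 0.00519) in control cells. RPTOR, its scaffold, changed by -0.21 and -0.48 (adjusted p = 0.0354 and 0.000289), PRKAB2, a subunit of AMPK, by -0.34 and -0.74 (adjusted p = 0.0118 and 0.000112), and DEPTOR, an MTOR inhibitor, by -0.56 and -0.17 (adjusted p = 0.00586 and 0.285). Over all 73 genes, as over the 39, 0 passed in limma for knockdown against control after or before ATRA or for the difference of the responses, and 15, 5 and 7 of the 73 had an unadjusted p under 0.05 there, beside 28.1%, 3.95% and 15.3% of all genes.

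**Figure D5:**
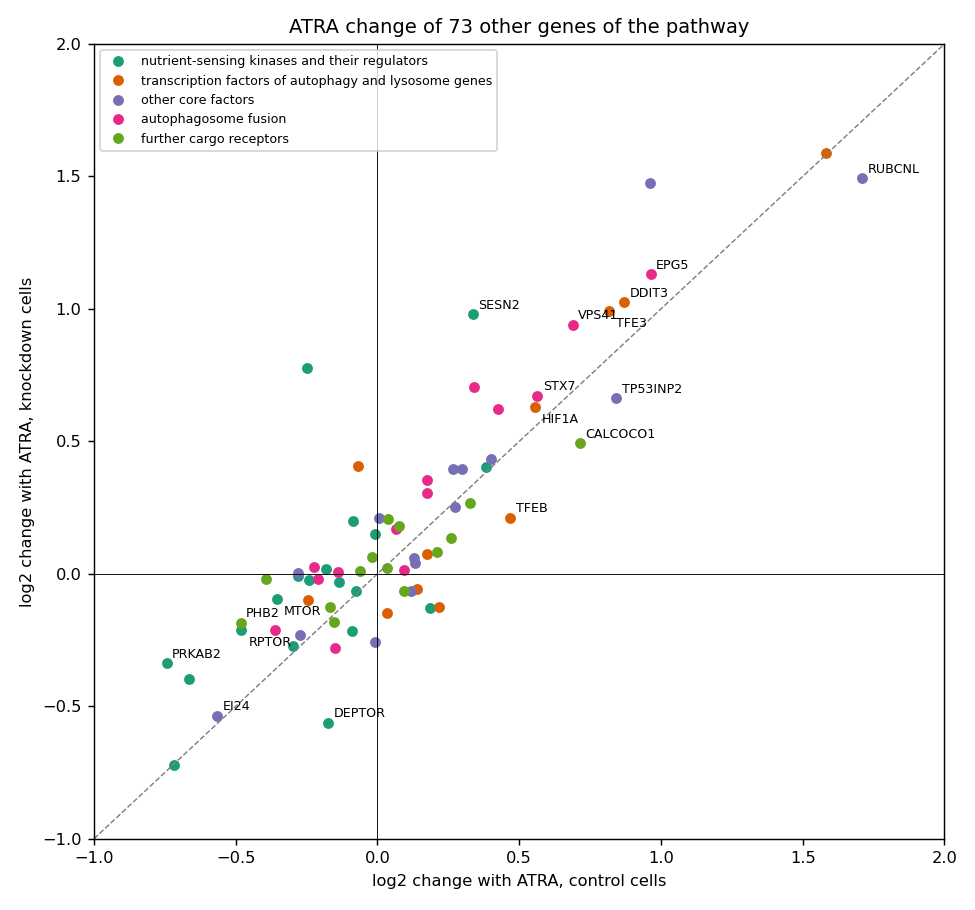
Log2 change with ATRA in knockdown cells (vertical axis) against that in control cells (horizontal axis) for 73 further genes of the autophagy pathway, coloured by role, with the dashed line of equal change. RUBCNL lies at the upper right, at 1.49 in knockdown and 1.71 in control cells, and PRKAB2 furthest left, at -0.34 and -0.74.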

How the data were processed

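The deposited values are log2 levels per probe set, and RMA and limma are named without versions or settings, per the submitters' processing notes. They were used as deposited, with a range of 2.67 to 14.63 and medians per array of 7.73 to 7.81. Probe sets were named through the platform annotation, and the 19158 with 1 gene gave 18404 genes, 637 of them with several probe sets. For arrays, their number limits the precision. Each comparison was fitted with limma 3.58.1 in R 4.3.3 over all 18404 genes and all 12 arrays, on 4 arm means with 8 residual degrees of freedom and eBayes defaults. Tests were two-sided, with Benjamini-Hochberg adjustment over all genes of a comparison and a threshold of 0.05. With 3 arrays against 3, an exact permutation test has a smallest p of 0.1. Full values are given for called genes with the largest changes, up to 6 in each direction and ATRA comparison, for the 3 smallest p of the other comparisons, and for the ATG8 family. The list, its roles and the pathway and marker lists were chosen with earlier results of these data known. Genome coordinates of the probe sets were not used here. Alternatives were array weights, a trended and robust eBayes, leaving out the 6134 genes with the lowest levels, the mean over probe sets, quantile normalization repeated, a replicate block, scrambled and shRNA1 arrays alone, and leaving out each array.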

Additional observations from a re-analysis of the deposited data

How the results depend on the processing

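The counts of autophagy genes called higher with ATRA stayed within 1.5 times of the reported ones in all alternatives. With 1 array left out they were 9 to 12 of 39 in knockdown cells and 9 to 11 in control cells. Of all genes 7.618% to 11.08% and 8.417% to 15.01% were higher there, in that order. On scrambled and shRNA1 arrays alone these shares were 5.14% and 4.146%. In that setting MAP1LC3B, GABARAP and NBR1 were no longer called higher in knockdown cells, nor ATG2A and OPTN in control cells. The counts of autophagy genes called lower did not stay within 1.5 times. In knockdown cells 1 gene was lower on scrambled and shRNA1 arrays alone, and 0 to 4 were lower with 1 array left out, 0 of them without shRNA2 ATRA and 1 without shRNA1 replicate 2 untreated or shRNA1 replicate 2 ATRA. Of all genes 7.69% were lower on scrambled and shRNA1 arrays alone and 10.9% to 15.6% with 1 array left out. In control cells 3 autophagy genes were lower with quantile normalization repeated and 2 on scrambled and shRNA1 arrays alone, and 3 to 6 with 1 array left out, 3 without wild type untreated or wild type ATRA. The shares of all genes lower there were 16.5%, 12.05% and 16.2% to 21.1%, in that order. The cause was not tested, though fewer arrays also leave a less certain spread. Knockdown against control and the difference of the responses gave 0 called autophagy genes in all of them, while over all genes the count after ATRA was 10 higher and 1 lower as reported, 383 and 313 with array weights, 138 and 142 with quantile normalization repeated, 17 and 11 with a trended and robust eBayes, 44 and 19 without the 6134 lowest genes, and 0 and 0 on scrambled and shRNA1 arrays alone. With 1 array left out it was 420 and 281 without untreated scrambled replicate 2, 66 and 12 without scrambled replicate 1 ATRA, 31 and 12 without shRNA2 untreated, 7 and 1 without scrambled replicate 1 untreated, 3 and 0 without wild type ATRA, 1 and 0 without shRNA1 replicate 2 ATRA, and 0 and 0 without any 1 of wild type untreated, shRNA1 replicate 1 untreated, shRNA1 replicate 2 untreated, scrambled replicate 2 ATRA, shRNA1 replicate 1 ATRA and shRNA2 ATRA.

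Replicate numbers are shared between arms, but deviations of same-numbered arrays correlated at -0.173 to 0.226, so the fit does not take the numbers to pair the samples. The changes by line do match arrays by number, so for scrambled and shRNA1 cells they are a description only. With the replicate block, 10 autophagy genes were higher and 2 lower in knockdown cells and 10 and 4 in control cells. Of all genes 9.89% were higher and 14.0% lower in knockdown cells with that block, and 12.5% and 20.4% in control cells. PIK3R4 and MAP1LC3B in knockdown cells and WIPI2 in control cells no longer passed (adjusted p = 0.0746, 0.0702 and 0.061).

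Values near 0 changed sign. The control change of GABARAPL2 was -0.005 on scrambled and shRNA1 arrays alone and -0.003 to 0.045 with 1 array left out. Before ATRA, knockdown minus control was -0.003 for GABARAP with array weights and -0.022 to 0.064 with 1 array left out, and for GABARAPL2 it was -0.019 with array weights, -0.092 on scrambled and shRNA1 arrays alone and -0.081 to 0.059 with 1 array left out. After ATRA that of GABARAP was -0.081 to 0.004 with 1 array left out. The difference of the responses of GABARAPL1 was -0.118 with quantile normalization repeated and -0.056 to 0.188 with 1 array left out. The median over the 39 genes also turned sign, at -0.004 to 0.056 for ATRA in control cells and -0.045 to 0.015 for knockdown against control before ATRA with 1 array left out. Before ATRA it was also -0.051 with array weights and -0.016 on scrambled and shRNA1 arrays alone, and with quantile normalization repeated it was -0.046 for knockdown against control after ATRA and -0.045 for the difference of the responses. For the genes chosen for full values by the rule given above, 836 values under an alternative kept direction and side of the threshold, 41 no longer passed and 14 reversed. This tally leaves out, among others, the ATRA changes of ATG2A, ATG9A, OPTN, RB1CC1 and ATG5, whose calls were lost or gained in some alternatives. For knockdown against control and the difference of the responses, 0 autophagy genes were called in any setting, so only the direction could change there. For part of the 836 the direction was fixed in advance. Leaving out an array of an arm outside a comparison, or altering the eBayes step alone, leaves the log2 change as it was.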
